A study of Mus musculus with 2 samples.

Results

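The cells described here were macrophages and other myeloid cells found among muscle stem cells (MuSCs) sorted from mouse plantaris muscle. They were chosen by their measured RNA: a cell was a member when under 10% of its unique molecular identifiers (UMIs, each standing for 1 captured RNA molecule) were mitochondrial, when it held at least 1000 UMIs, when Tyrobp, Fcer1g, C1qa and C1qb summed to at least 5 UMIs, and when Pax7 had 0 UMIs. This rule found 99 of the 4954 cell barcodes in both matrices, 4 in the sham library and 95 in the mechanical overload (MOV) library. Since these 4 genes and Pax7 chose the cells, every difference between members and other cells is given as a description, with no test.

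Plantaris muscles came from Pax7rtTA; TRE-H2B-GFP mice aged 26 weeks, in which the Pax7 promoter drives a doxycycline-dependent activator and a GFP-tagged histone marks MuSC nuclei. Both groups drank doxycycline at 2.0 mg/mL for 2 weeks. The overload group had synergist ablation, which forces the plantaris to carry the load of the muscles removed, and the sham group had an incision with probing of the plantaris tendon. Muscles were taken 5 days after surgery, and each group gave 1 single-cell library. The sort, by the study's methods, kept VCAM+ cells that were negative for CD31, CD45 and SCA1. The design text of the series names a sort based on GFP, so which gate was used is not settled here. CD45, the product of Ptprc, is on the surface of nearly all leukocytes, so a CD45-negative gate can itself set how many myeloid cells a library holds.

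Macrophages enter muscle as blood monocytes or live there as resident cells, and after injury or overload they clear debris and release factors that act on MuSCs and on fibro-adipogenic progenitors, the Pdgfra+ mesenchymal cells of muscle. Tyrobp and Fcer1g encode the adaptor chains through which Fc and many other myeloid receptors signal to the kinase Syk. C1qa, C1qb and C1qc encode the chains of C1q, the first component of the classical complement pathway, and Pf4 encodes a chemokine of platelets and of some macrophages.

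On GRCm38 the 3 C1q genes lie side by side on the minus strand of chromosome 4, C1qb from 136880129 to 136886187, C1qc from 136889804 to 136893065 and C1qa from 136895917 to 136898803. Tyrobp spans 30413760 to 30417585 of chromosome 7, Fcer1g 171229572 to 171234365 of chromosome 1 and Pf4 90772435 to 90773383 of chromosome 5. The RefSeq promoter windows of C1qb, C1qc and Pf4 are shown as examples. C1qb is a gene of the rule, and C1qc and Pf4 were measured at high levels in the same cells. Each window runs 5′ to 3′ on the gene's strand, from 250 bases before to 50 bases after the annotated start (GRCm38.p6; C1qb chr4:136886151-136886450 minus, C1qc chr4:136892865-136893164 minus, Pf4 chr5:90772185-90772484 plus). Capitals mark GAGGAA, or TTCCTC where it lies on the other strand, letters found in sites of the ETS factor PU.1, which Spi1 encodes.
C1qb: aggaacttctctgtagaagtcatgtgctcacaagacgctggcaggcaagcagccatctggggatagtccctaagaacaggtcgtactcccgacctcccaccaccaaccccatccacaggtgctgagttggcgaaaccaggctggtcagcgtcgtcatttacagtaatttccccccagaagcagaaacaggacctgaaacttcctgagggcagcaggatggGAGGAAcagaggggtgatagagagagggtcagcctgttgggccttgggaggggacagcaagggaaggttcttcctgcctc
C1qc: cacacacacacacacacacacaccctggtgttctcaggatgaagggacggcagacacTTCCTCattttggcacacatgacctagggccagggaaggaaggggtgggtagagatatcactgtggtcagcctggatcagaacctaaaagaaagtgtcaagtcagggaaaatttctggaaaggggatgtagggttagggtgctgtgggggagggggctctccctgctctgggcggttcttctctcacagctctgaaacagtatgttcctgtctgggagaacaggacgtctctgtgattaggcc
Pf4: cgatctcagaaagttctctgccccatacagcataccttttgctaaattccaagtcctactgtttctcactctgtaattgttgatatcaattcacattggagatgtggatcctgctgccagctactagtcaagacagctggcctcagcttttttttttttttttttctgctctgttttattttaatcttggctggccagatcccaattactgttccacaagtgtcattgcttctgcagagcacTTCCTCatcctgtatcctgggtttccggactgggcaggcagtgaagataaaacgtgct
GAGGAA was found on either strand in 28.3% of 32851 mouse promoter windows. Of the 26 genes that make up the rule and the macrophage identity list, 16 had a window, and 11 of these 16 (68.8%) held the letters, against 31.3% of all 27025 genes with a window. Each of the windows shown held 1 match. The window of Fcer1g, also a gene of the rule, held 0 and that of Ctss 2, and neither is shown. Tyrobp and C1qa had no window in this table.

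The libraries differed in depth. The sham matrix held 1100 barcodes and 7302661 UMIs, with a median of 4116.5 UMIs per barcode, and the overload matrix held 3854 barcodes and 88498487 UMIs, with a median of 16836. The limits on mitochondrial share and UMIs kept 675 sham and 2854 overload cells. In all, 44 barcodes occurred in both libraries, and the deeper copy held 23.1 to 287 times the UMIs of the shallower one (median 47.4). The sham copy was the deeper one for 39 of the 44. One of these barcodes was a member in both libraries, with 54373 UMIs in sham and 1015 in overload. Leaving the shared barcodes out gave 3 sham and 94 overload members.

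Members made up 0.593% of the kept sham cells (4 of 675, exact Clopper-Pearson 95% interval 0.162 to 1.51%) and 3.33% of the kept overload cells (95 of 2854, 2.70 to 4.05%). The intervals did not overlap. They cover counting error only, and with 1 library per condition the share after overload cannot be told apart from differences between 2 libraries that passed through the same gate. The depth of the 2 libraries also differed. With a limit of 5 rule gene UMIs per 10000 UMIs in place of 5 UMIs, 4 sham cells (0.593%) and 103 overload cells (3.61%) were members. Other ways in which depth could act on the count were not tested.

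**Figure D1:**
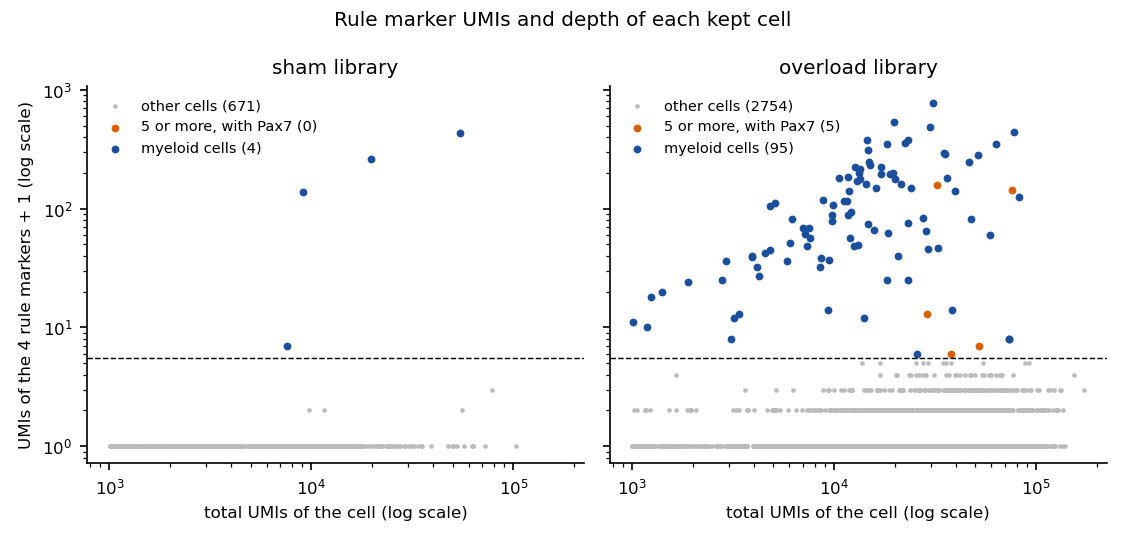
Summed UMIs of Tyrobp, Fcer1g, C1qa and C1qb plus 1 (y, log scale) against total UMIs (x, log scale) for each kept cell, sham and overload in separate panels, with the dashed line at the limit of 5. The sham panel holds 4 members among 675 cells. The overload panel holds 95 members among 2854 cells, and 5 cells above the line were left out of the members for their Pax7 UMIs.

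In the overload members the 4 rule genes summed to between 5 and 770 UMIs, with a median of 80 and quartiles of 37.5 and 182. Of the 2759 other overload cells, 73.7% had 0 UMIs of these genes. Just inside the limit, 1 cell had 5 rule UMIs and 0 Lyz2 UMIs, and 3 cells with 7 rule UMIs held 24 Lyz2 UMIs between them. Just outside it, 8 cells with 4 rule UMIs held 14 UMIs of Lyz2 and 6 of Pf4 in all, and 22 cells had 3. A further 5 overload cells and 0 sham cells reached the limit but carried Pax7. These 5 cells stayed among the other overload cells in every ratio, and 1 of them held 156 rule UMIs. Members had fewer UMIs than the other overload cells, with medians of 13442 and 23892.

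The name myeloid was checked with genes that the rule did not use. Before any thinning, 94.7% of overload members had a UMI of Lyz2 (lysozyme), 95.8% of Ctss (cathepsin S), 84.2% of Pf4, 84.2% of Ptprc and 81.1% of Csf1r, the receptor for the macrophage growth factor CSF1. Cells differ in depth, so each was also thinned at random to 2000 UMIs, which left out 5 of 95 members. Lyz2 was then seen in 83.3% of members, in 2.63% of 380 Pdgfra cells and in 1.99% of 1209 Pax7 cells. Ptprc was seen in 46.7%, 0% and 0.0827%. Pdgfra cells (at least 2 Pdgfra UMIs, 0 Pax7) and Pax7 cells (at least 1 Pax7 UMI, 0 Pdgfra) had under 5 rule UMIs each and serve as background, since free RNA in droplets can put UMIs of a gene into cells that do not express it. The median depth before thinning was 37020.5 UMIs in Pdgfra cells and 26574 in Pax7 cells.

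Many members also carried genes listed as markers of another cell type. Limits on 6 marker lists, set after the values were seen, marked 42 of the 95 overload members as mixed droplets, 24 of them by fibro-adipogenic genes, 12 by MuSC genes, 7 by endothelial, 2 by Schwann, 1 by mural and 1 by muscle fibre genes, with some cells past more than 1 limit. The fibro-adipogenic list took 126 to 711 of every 10000 UMIs in those 24 cells, at most 64.2 in the other members, and a median of 424 in Pdgfra cells. The MuSC list had no such gap, with 16.1 in the lowest cell over its limit and 14.5 in the highest below. Of the members' 1361 UMIs of that list 866 were of Sdc4, which 83 of the 95 members held. Passing that limit therefore need not mean RNA of a MuSC. The mixed cells held 63.1% of all UMIs of the members. Their median was 22684 UMIs per cell against 11129 in the 53 members past none of the limits, called myeloid-only cells below. The macrophage identity list took a median of 108 per 10000 UMIs in the mixed cells and 266 in the myeloid-only cells. Not every mixed cell held much of it. A cell of 73113 UMIs had 7 rule UMIs, 0.41 per 10000 of the identity list and 296 of the fibro-adipogenic list. Its name as myeloid rests almost wholly on those 7 UMIs. A mixed cell of 73401 UMIs held 27 of the members' 36 Myod1 UMIs. The UMIs of such deep cells count in every sum over all members. A doublet score against simulated pairs of cells removed 6 members, 5 of them mixed. The counts over gene groups below are therefore given with and without the mixed cells, and the ratio of a single gene is over all members unless myeloid-only cells are named. Whether a mixed droplet held 1 cell or more than 1 was not tested.

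**Figure D2:**
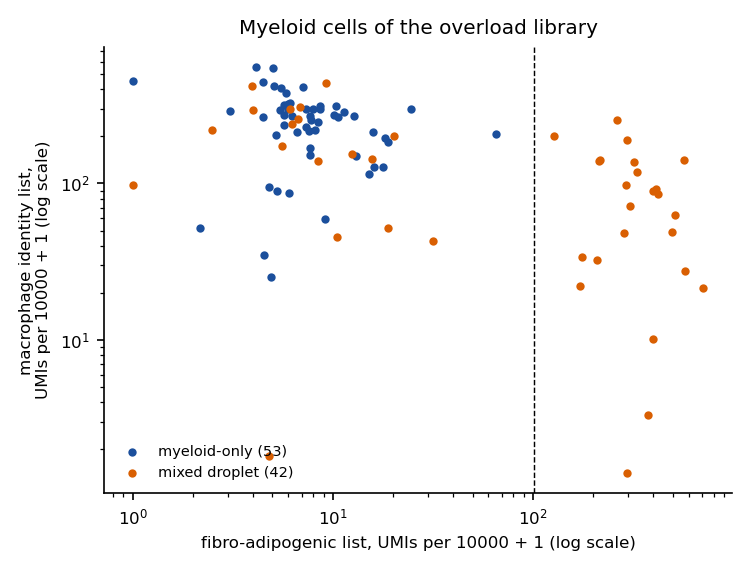
UMIs of the macrophage identity list (y) against those of the fibro-adipogenic list (x), each per 10000 UMIs plus 1 on log axes, for the 95 overload members, with the dashed line at the fibro-adipogenic limit of 100. The 53 myeloid-only cells stay at or below 64.2 on x, and the 24 cells past the line reach 126 to 711.

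UMIs were summed over cells and scaled to counts per 1000000 UMIs (CPM), and the log2 ratio of members to the other 2759 overload cells was taken for 15043 genes with at least 20 UMIs over both sides. At least 4-fold higher in members were 1039 genes, 6.91% of those tested, and at least 4-fold lower were 491, or 3.26%. For the 53 myeloid-only cells these were 1225 of 14981 genes (8.18%) and 1255 (8.38%). The median log2 ratio over all genes was -0.10 with and -0.20 without mixed cells. Ranges after a CPM value or a log2 ratio are exact 95% intervals for the counting of UMIs, and cells vary by more than they cover. A gene with no UMI on one side was set against 3 counts in place of 0, which gives a bound. All counts and ratios on gene groups below are of levels relative to the other overload cells unless another group is named.

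The macrophage identity list, whose median log2 ratio was 8.28, held 22 genes, and all 22 were past 4-fold higher both with the mixed cells and, at a median of 9.05, without them. Lyz2 per cell ran from 0 through a median of 49.7 to 281 per 10000 UMIs among the overload members. Its sum was 4948 CPM in all members, 7689.6 CPM (7479.6 to 7904) in myeloid-only cells, 12.6 in Pdgfra cells and 8.80 in Pax7 cells, a log2 ratio to the other cells of 7.63 (7.56 to 7.70). Ctss ran from 0 through 15.1 to 84.9 per 10000 UMIs and summed to 2414 CPM in myeloid-only cells against 1.91 in Pdgfra cells. Adgre1, which encodes the F4/80 antigen, had a log2 ratio of 9.56 (8.95 to 10.23). The smallest ratio of the list was that of Cx3cr1, the fractalkine receptor, at 3.68 with 40 UMIs in all members. Lyz2 lies on chromosome 10 from 117277331 to 117282321 (minus strand) and Ctss on chromosome 3 from 95526786 to 95556403 (plus strand).

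**Figure D3:**
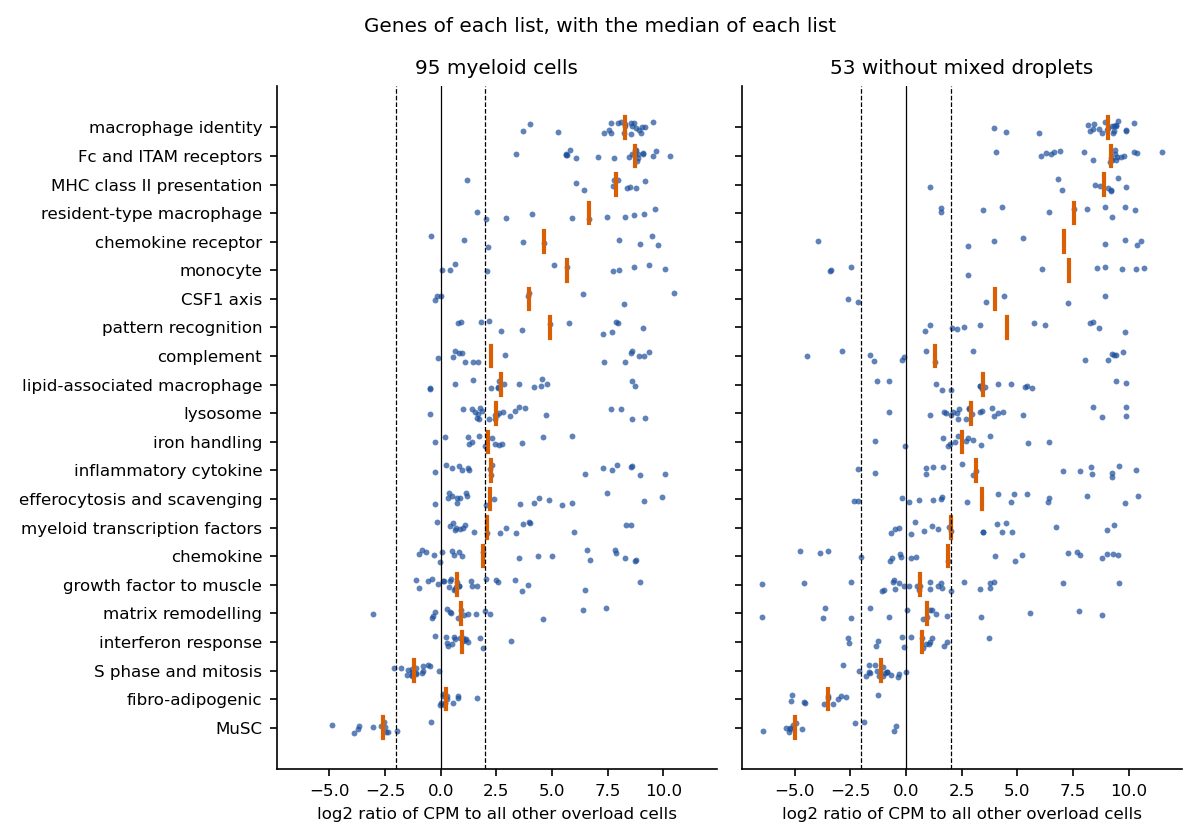
Log2 ratio of CPM in members to CPM in all other overload cells, 1 point per gene and 1 row per gene list, with list medians in orange and dashed lines at -2 and 2. The left panel uses all 95 members and the right panel the 53 myeloid-only cells, and genes without UMIs on one side stand at their bound against 3 counts. The macrophage identity median moves from 8.28 to 9.05, and the fibro-adipogenic median from 0.23 to -3.50.

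Genes of the rule are given for their level only. In myeloid-only cells Tyrobp summed to 2326 CPM, Fcer1g to 2515, C1qa to 2633 and C1qb to 2836, and in the other overload cells none of them exceeded 4.89 CPM. C1qc, the third chain of C1q and no gene of the rule, ran from 0 through 10.2 to 53.9 per 10000 UMIs, with a log2 ratio of 8.92 (8.70 to 9.14). C1qc was thus high in the same group of cells as C1qa and C1qb, its neighbours in the genome. Of 20 complement genes other than C1qa and C1qb 16 had enough UMIs, and 8 were past 4-fold higher and 0 lower (median 2.28). Without mixed cells 7 of 15 were higher and 2 lower (median 1.29). The higher genes included the anaphylatoxin receptors C3ar1 (log2 ratio 8.53) and C5ar1 (9.12) and Cfp, which encodes properdin (7.32). The proteases of the C1 complex and the inhibitor Serping1 differed from the chains of C1q. C1s1 stood at 4.54 CPM in myeloid-only cells and 118 in Pdgfra cells, and Serping1 at 12.1 and 639. C3, the central complement protein, stood at 43.9 and 196 CPM.

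Receptors that signal through Tyrobp and Fcer1g, or that oppose such signals, were measured together with their kinases. All 21 of the Fc and ITAM genes with enough UMIs, of 23 in the list, were past 4-fold higher (median 8.71), and without mixed cells all 20 were (median 9.23). Trem2, a lipid-sensing receptor that pairs with Tyrobp, ran from 0 through 3.39 to 24.7 per 10000 UMIs and summed to 587 CPM in myeloid-only cells against 1.30 in Pdgfra cells. The Fc receptor genes Fcgr1 and Fcgr3 had log2 ratios of 8.61 and 9.07. The inhibitory receptor gene Fcgr2b had a ratio of 5.61. The kinase gene Syk had 139 CPM in myeloid-only cells and 1.17 in the other cells. The largest ratio of the list was that of Cd300lf, a receptor for lipids, at 10.29 from 27 UMIs, and the smallest that of Sirpa, the receptor for the CD47 signal, at 3.36. Lilrb4a and Lilr4b, at 9.08 and 9.55, are near-identical copies, and how reads were divided between them is uncertain.

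Among pattern recognition genes 10 of 13 with enough UMIs were past 4-fold higher (median 4.90), and 10 of 12 were without mixed cells (median 4.54). Cd14, the lipopolysaccharide co-receptor, summed to 1484 CPM in myeloid-only cells and 4.24 in Pdgfra cells. Nlrp3, the sensor of an inflammasome, had a log2 ratio of 9.09 (8.45 to 9.81), Tlr2 of 5.78 and Tlr4 of 2.17. Tlr9 had 0 UMIs in the members, and the adaptor gene Myd88 was within 4-fold at 0.77.

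Of 19 transcription factor genes with enough UMIs, 10 were past 4-fold higher with and without the mixed cells (medians 2.10 and 2.04). Spi1, which encodes PU.1, ran from 0 through 1.99 to 10.5 per 10000 UMIs, with 436 CPM in myeloid-only cells and 0.547 in Pdgfra cells. Ikzf1, the hematopoietic zinc finger factor Ikaros, had a log2 ratio of 8.30 from 34 UMIs, and Irf8, a factor of monocytes and dendritic cells, of 3.68. Cebpb and Runx1 were widely measured in the other cells too, at log2 ratios of 0.87 and -0.18.

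Genes of resident-type macrophages were high in the members. Of 11 with enough UMIs 10 were past 4-fold higher (median 6.67), and 9 were without mixed cells (median 7.56). Mrc1, the mannose receptor CD206 (chromosome 2, 14229392 to 14332057, plus strand), ran from 0 through 4.31 to 51.4 per 10000 UMIs and had a log2 ratio of 9.12 (8.77 to 9.49). F13a1, which encodes the A chain of coagulation factor XIII, had 9.64 (9.13 to 10.19), the gene whose interval lay farthest above 0 of all genes outside the rule. After thinning, Mrc1 was seen in 60% of myeloid-only cells and in 0% of Pdgfra cells, Folr2, a folate receptor, in 40% and 0.263%, and Lyve1, a hyaluronan receptor, in 8% and 0%. Lyve1 had 79 UMIs in 21 cells, 24 of them in 1 cell. Timd4, which encodes the phosphatidylserine receptor TIM-4, had 7 UMIs in all members. Fcgrt and Gas6 were nearer to their level in the other cells, at 1.63 and 2.06, with 134 and 97.6 CPM in Pdgfra cells. Gas6 stood below the 4-fold limit without mixed cells, at 1.58, and also without the 1 cell that held the most, at 1.73.

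Genes of antigen presentation on MHC class II were past 4-fold higher for 9 of 10 with enough UMIs (median 7.87), and for 9 of 10 without mixed cells (median 8.91). H2-Aa, a chain of the class II molecule, ran from 0 through a median of 0 to 225 per 10000 UMIs, so the median member had none. Cd74, the invariant chain, ran from 0 through 2.55 to 486. Summed over myeloid-only cells these were 2158 and 4825 CPM, against 3.08 and 8.68 in Pdgfra cells. The costimulatory gene Cd86 had a log2 ratio of 8.79 and Cd80 of 1.16.

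Resident-type and class II genes were also counted together in single cells. In 50 myeloid-only cells thinned to 2000 UMIs, 33 had a UMI of Folr2, Lyve1, Cbr2 or F13a1, 20 had one of H2-Aa, H2-Ab1 or H2-Eb1, 12 had both and 9 had neither. The class II genes were thus seen in 36.4% of the cells with a resident-type gene and in 47.1% of those without one, which is given with no test.

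Clustering of the 95 overload members, without the 4 rule genes, gave 3 clusters. A cluster's leading genes define it and are no finding between clusters. Cluster 1 (42 cells, 14 mixed) led with Tfrc, Cbr2, Gatm, Ltc4s, Ccl12, Slc37a2, Ednrb, Cd36, Folr2 and Nrp2. Of the UMIs over all members, 2 cells held 72 of 118 for Tfrc and 62 of 118 for Gatm. Cluster 2 (29 cells, 4 mixed) led with Napsa, Il1b, H2-Eb1, Mefv, H2-Aa, Cytip, Spp1, H2-Ab1, Plbd1 and Cd74. Cluster 3 (24 cells, all mixed) led with matrix genes such as Prelp, Thbs3 and Prg4. The fibro-adipogenic list took 30.8 to 711 per 10000 UMIs in cluster 3 and up to 126 in cluster 1. The cells of cluster 3 were thus not the same set as the 24 past the fibro-adipogenic limit. The resident-type list took a median of 68.0, 18.7 and 16.7 per 10000 UMIs in clusters 1, 2 and 3, the class II list 31.7, 133 and 13, and the identity list 217, 268 and 66.4.

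Levels of single genes in the clusters are given in the same way, as a description. Cd163, the scavenger receptor for hemoglobin bound to haptoglobin, stood at 194 CPM in cluster 1, 0 in cluster 2 and 10.2 in cluster 3. Lyve1 stood at 103, 0 and 8.90 CPM. H2-Aa stood at 559.5, 5111 and 502 CPM. The clusters were made from the same counts, and H2-Aa, Il1b and Ccl12 are leading genes, so their order follows from the clustering. Il1b, the inflammatory cytokine interleukin 1β, stood at 276, 3042 and 267 CPM, and Il10, an anti-inflammatory cytokine, at 122, 543 and 76.3. Ccl8 and Ccl12, chemokines for monocytes, had the reverse order between clusters 1 and 2, at 1690.0 and 126 CPM for Ccl8 and 488 and 19.9 for Ccl12. Of the members' 440 Ccl12 UMIs 124 were in 1 cell. C1qc was near level between them, at 1606 and 1162 CPM, as was Lyz2, at 6609 and 8325. The number of clusters followed the resolution, with 2 clusters at 0.3 and 6 at 1.0. At 1.0, 1 group of 11 cells had a median of 39.7 per 10000 UMIs of the S phase and mitosis list. Clustering only the myeloid-only cells gave 2 clusters, of 28 and 25 cells. The class II list took medians of 148 and 38.5 per 10000 UMIs in them, but the resident-type list was near level at 44.4 and 41.5. Spp1, which led cluster 2 with class II genes above, here led the cluster with the lower class II median.

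**Figure D4:**
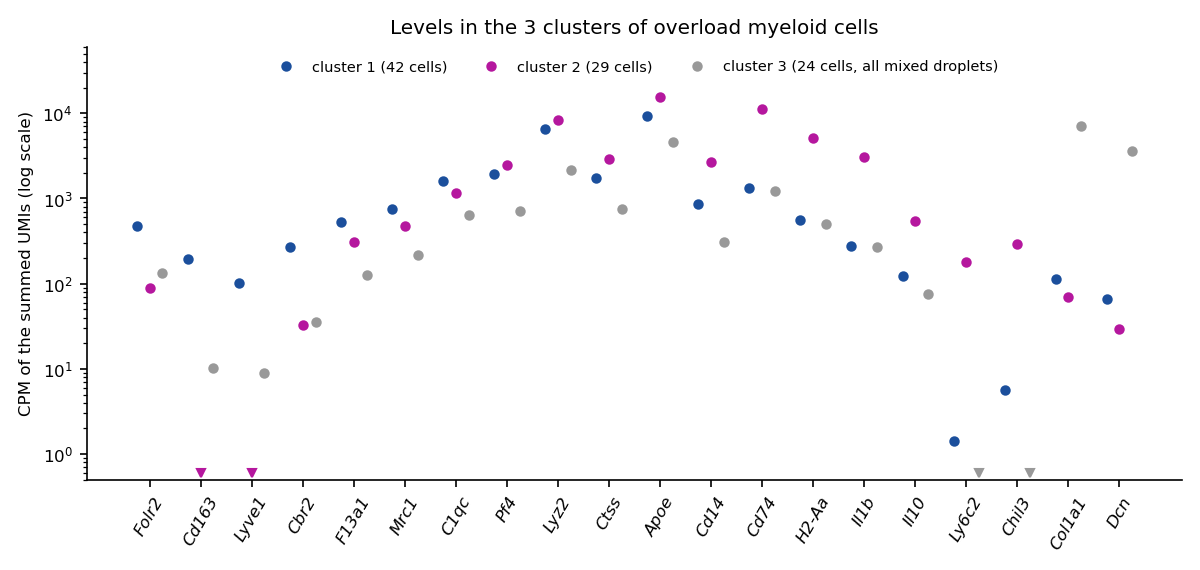
CPM (log scale) of resident-type, class II, monocyte and cytokine genes in the 3 clusters of overload members, with triangles at the foot for 0 UMIs. Cd163 and Lyve1 have 0 UMIs in cluster 2, Ly6c2 and Chil3 have 0 in cluster 3, and H2-Aa reaches 5111 CPM in cluster 2 against 559.5 in cluster 1.

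Monocyte genes were past 4-fold higher for 8 of 11 with enough UMIs (median 5.68), and without mixed cells 7 of 10 were higher and 3, Vcan, Fn1 and Ace, were lower (median 7.33). Ccr2, the receptor for the monocyte chemokine Ccl2, was seen after thinning in 16.7% of members, 30% of myeloid-only cells and 0% of Pdgfra cells. It summed to 118 UMIs in all members, a log2 ratio of 8.03 (7.35 to 8.77). Ly6c2 and Chil3, genes of classical monocytes, were held by few cells. Ly6c2 had 56 UMIs in 7 cells, and 37 of them in 1 cell that also had 31 Chil3, 31 Plac8, 10 Ccr2 and 170 Lyz2 UMIs and 0 of C1qc. Chil3 had 69 of its 93 UMIs in 2 cells. Ly6c2 shares near-identical copies in the genome and its counts are uncertain. Vcan and Fn1, which encode versican and fibronectin, stood at 19.7 and 204 CPM in myeloid-only cells and at 560.4 and 3229.7 in Pdgfra cells, so the members' 334 and 1501 CPM lay mostly in mixed cells.

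The lysosome list was past 4-fold higher for 15 of 24 genes (median 2.48) and for 20 of 24 without mixed cells (median 2.91). Ctsb, cathepsin B, ran from 0 through 33.2 to 181 per 10000 UMIs and had a log2 ratio of 3.52, since Pdgfra cells held it too at 470.2 CPM. Psap, Grn and Lgmn, which encode prosaposin, progranulin and legumain, had 3.11, 3.35 and 3.81. Cd63, a tetraspanin of late endosomes, was within 4-fold at -0.46. Of 20 efferocytosis and scavenging genes with enough UMIs 11 were past 4-fold higher (median 2.23). Without mixed cells 10 of 20 were higher and 2 lower (median 3.43). Msr1, the class A scavenger receptor, had 9.96 from 107 UMIs, Abca1, a cholesterol exporter, 4.86, and Mertk, a receptor for apoptotic cells, 3.57 from 24 UMIs. Axl and Mfge8, with the same use, were at 19.7 and 18.1 CPM in myeloid-only cells and 199 and 139 in Pdgfra cells. These 2 genes were past 4-fold lower without mixed cells.

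The lipid-associated list was past 4-fold higher for 12 of 16 genes with and without mixed cells (medians 2.73 and 3.47). Apoe, the lipid carrier apolipoprotein E, ran from 0 through 84.1 to 1061 per 10000 UMIs and summed to 12118 CPM in myeloid-only cells, 57.0 in Pdgfra cells and 366 in Pax7 cells. Fabp5 and Lgals3, a fatty acid carrier and galectin 3, had log2 ratios of 2.57 and 2.59. Spp1, osteopontin, was different. It ran from 0 through 3.39 to 424 per 10000 UMIs, was within 4-fold of the other cells at 0.65 (0.60 to 0.69), and was measured at 1324 CPM in Pdgfra and 1476 CPM in Pax7 cells. Of the members' 3424 Spp1 UMIs 1 cell held 25.5% and 2 cells together 47.5%, and without the first the ratio was 0.24. Gpnmb, with 222 UMIs in 32 cells, was past 4-fold at 4.54, and stood at 4.14 without the cell that held the most.

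Genes of iron handling were past 4-fold higher for 7 of 14 (median 2.14) and 9 of 14 without mixed cells (median 2.50). Fth1 and Ftl1, the ferritin chains that store iron, had 19240.5 and 11486 CPM in myeloid-only cells and 3091 and 2131 in Pdgfra cells. Their log2 ratios to all other cells were 2.30 and 2.43. Hmox1, which degrades heme, had 3.66 (3.58 to 3.75) and Slc11a1, an iron transporter of phagosomes, 4.58. Slc40a1, the iron exporter ferroportin, had 6 UMIs in all members.

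Of 18 inflammatory cytokine genes with enough UMIs 11 were past 4-fold higher and 0 lower (median 2.27), and without mixed cells 11 were higher and 1 lower (median 3.14). Il1b ran from 0 through a median of 0 to 129 per 10000 UMIs and was seen in 36% of thinned myeloid-only cells and 0.263% of Pdgfra cells. Its log2 ratio was 7.27 (7.11 to 7.44). Genes of opposite known effect were high side by side. Il1rn, which encodes the antagonist of the interleukin 1 receptor, had 7.94, Il10 had 8.53 and Tnf had 6.50. Il10 had 310 UMIs in 40 cells. Nos2 had 1 UMI and Il12b had 0, while Arg1 had 58 and a ratio of 2.20, but Pdgfra cells held Arg1 as well, at 32.6 CPM against 62.0 in myeloid-only cells. Without the 1 cell that held 12 Arg1 UMIs its ratio was 1.93, below the 4-fold limit. Il6 was the gene past 4-fold lower without mixed cells, at 9.08 CPM against 114 in Pdgfra cells.

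Some chemokines were near 0 outside the members and others were shared with Pdgfra cells. Of 21 with enough UMIs 10 were past 4-fold higher (median 1.91), and without mixed cells 10 were higher and 4 lower (median 1.88). Ccl3 and Ccl4, chemokines of the inflammatory CC family, had 673 and 1634 CPM in myeloid-only cells and 1.23 and 1.64 in Pdgfra cells. Ccl6 and Pf4 had log2 ratios of 8.79 (8.56 to 9.03) and 8.29 (8.14 to 8.44). Cxcl2, a neutrophil chemokine, ran from 0 through 21.6 to 508 per 10000 UMIs, with 5639 CPM in myeloid-only and 401 in Pdgfra cells.

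Monocyte chemokines came from both sides. Ccl2 had 1452 CPM (1362 to 1547) in myeloid-only cells and 2605 (2579 to 2631) in Pdgfra cells, a log2 ratio of -0.84 (-0.94 to -0.75). Ccl7 had 1626 and 1391 CPM, a ratio of 0.23 (0.14 to 0.31). Cxcl1 stood at 509.7 and 1953 CPM. The chemokines past 4-fold lower in myeloid-only cells than in the other cells were Cxcl9, Cxcl10, Cxcl12 and Cxcl14. Cxcl12, the ligand of Cxcr4, had 3.02 CPM against 219 in Pdgfra cells, and Cxcl9 had 7.56 against 287.

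On the receptor side 7 of 9 genes with enough UMIs were past 4-fold higher (median 4.63), and 7 were higher and 1, Ackr3, lower without mixed cells (median 7.08). Ccr1, a receptor for Ccl3, had 206 CPM in myeloid-only cells and 0.205 in Pdgfra cells. Cxcr4 had 147 CPM in myeloid-only cells, 1.50 in Pdgfra cells and 29.8 in Pax7 cells. Ligand and receptor thus lay in different cells for Cxcl12 with Cxcr4, and in the same group of cells for Ccl3 with Ccr1.

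The same division held for the CSF1 axis, through which macrophages receive their main growth signal. Of 8 genes with enough UMIs 5 were past 4-fold higher, and of 7 without mixed cells 4 were higher and 2, Csf1 and Il34, lower. Csf1r ran from 0 through 2.76 to 25.1 per 10000 UMIs and had 445 CPM (395 to 499) in myeloid-only cells, 1.50 in Pdgfra and 0.574 in Pax7 cells. Its ligand Csf1 had 15.1 CPM (7.25 to 27.8) in myeloid-only cells, 179 (172 to 186) in Pdgfra and 74.5 in Pax7 cells, a log2 ratio of myeloid-only to Pdgfra cells of -3.56 (-4.63 to -2.68). Over all members Csf1 was within 4-fold at -0.27, and 28 of the 33 members with a Csf1 UMI were mixed. Csf2rb, a receptor chain for GM-CSF, had a log2 ratio of 6.37.

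**Figure D5:**
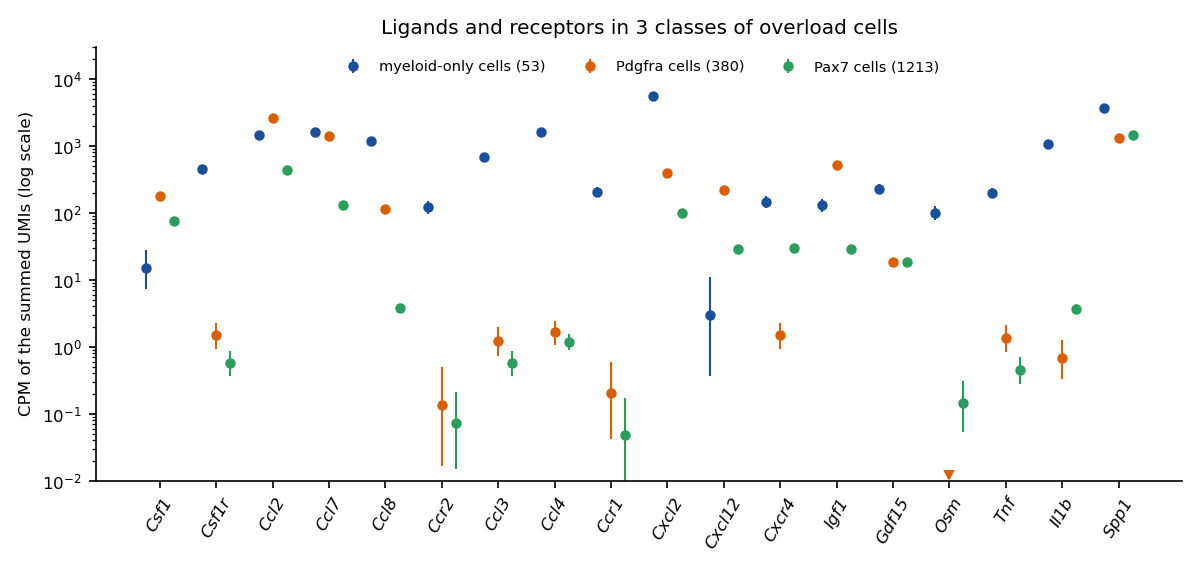
CPM (log scale) of ligands and receptors in 53 myeloid-only, 380 Pdgfra and 1213 Pax7 cells of the overload library, with exact Poisson 95% intervals that cover counting error only and are cut at 0.01. Triangles at the foot mark 0 UMIs, as for Osm in Pdgfra cells. Csf1r stands at 445 CPM in myeloid-only cells and Csf1 at 179 CPM in Pdgfra cells.

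Secreted factors that can act on muscle differed from gene to gene. Of 27 with enough UMIs 8 were past 4-fold higher with and without mixed cells, and 0 and 3 were lower, with medians of 0.72 and 0.62. Osm, oncostatin M, had 118 UMIs in members, 99.8 CPM in myeloid-only cells, 0 in Pdgfra and 0.143 in Pax7 cells. Gdf15, a TGF-β family factor, ran from 0 through a median of 0 to 51.4 per 10000 UMIs, with a log2 ratio of 3.90 (3.74 to 4.05). Igf1, a growth factor of muscle that macrophages are known to release, was lower in these cells than in Pdgfra cells. It had 130.1 CPM (104 to 161) in myeloid-only cells and 511 (499 to 523) in Pdgfra cells, a ratio of -1.97 (-2.30 to -1.67). The 3 genes lower in myeloid-only cells were Fn1, Adamts1 and Inhba, with 1.51 CPM of Adamts1 and 4.54 of Inhba, against 349 and 275 in Pdgfra cells. Tgfb1 had a log2 ratio of 1.64 and Vegfa of 0.37.

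Of 16 interferon response genes 1, Ifi27l2a at 3.15, was past 4-fold higher (median 0.94). Without mixed cells 1 was higher and 2, Ifit1 and Iigp1, were lower (median 0.74). Isg15 stood at 166 CPM in myeloid-only and 212 in Pdgfra cells. S phase and mitosis genes were below their level in the other cells, with a median log2 ratio of -1.19 over 18 genes and 1, Rrm2, past 4-fold lower. Without mixed cells the median was -1.13, and Rrm2 and Tyms were past 4-fold lower. Set against Pdgfra cells, all members had a median of -0.59 over these genes, and 0 of 18 were past 4-fold. The list summed to 1104 CPM in all members, 1628 in Pdgfra cells and 3130 in Pax7 cells. Of the members' 60 Rrm2 UMIs 39 were in 2 cells. Mki67 had 118 UMIs in members and a ratio of -0.80. Top2a had 200, 80 of them in 1 mixed cell and 112 in 2 cells, and a ratio of -1.27. In the 50 thinned myeloid-only cells 10 had a UMI of Mki67, Top2a, Cdk1, Ccna2 or Ube2c, and cycling is not read from these UMIs alone.

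Several matrix remodelling genes rested on single cells. Of 17 with enough UMIs 5 were past 4-fold higher and 1 lower, and without mixed cells 4 and 4. Ctsk, the collagenase cathepsin K, had 957 UMIs in 27 members, and 82.2% of them were in 2 cells, which also held 94.2% of the members' Mmp9 UMIs. The first of these cells had 39516 UMIs, with 493 Ctsk, 152 Mmp9, 40 Atp6v0d2 and 26 Csf1r, but 1 Lyz2 UMI and 0 of C1qc and Mrc1. The second was the deepest member, with 82119 UMIs, 294 Ctsk, 42 Mmp9, 26 Atp6v0d2 and 3 Lyz2, and also 95 Ube2c and 32 Top2a. Ctsk, Mmp9 and Atp6v0d2 together are best known from osteoclasts, the bone-resorbing relatives of macrophages. The identity list took 33.7 and 24.4 per 10000 UMIs in these cells, against a median of 266 in myeloid-only cells, and neither was mixed by the lists used. They were singled out after their values were seen, as were the cells named in the next sentences. Without the first cell the log2 ratio of Ctsk to the other cells changed from 2.19 to 1.18, and that of Mmp9 from 6.38 to 4.48. Mmp12, the macrophage elastase, had 154 of its 168 UMIs in 1 cell of 21438 UMIs that also had 752 Spp1 and 56 Gpnmb UMIs. Without it the ratio changed from 7.41 to 3.84.

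Some members carried genes of other leukocytes. For neutrophils, S100a9 had 40 UMIs, against 0 in the other overload cells, all in 1 cell of 2899 UMIs that also had 72 of the 83 S100a8 UMIs, 1 Lyz2 UMI and 0 Csf3r. Retnlg, Cxcr2, Ngp and Ly6g had 0 UMIs in all members, and 4 of 5 list genes with enough UMIs were past 4-fold higher, or 3 of 4 without mixed cells. For dendritic cells 5 of 7 were past 4-fold higher (median 3.68), and without mixed cells 5 were higher and 1, Fscn1, lower (median 4.31). Siglech, a gene of plasmacytoid dendritic cells, had 36 of its 38 UMIs in 2 cells and 23 in 1 cell that also had 26 Irf8, 10 Tcf4 and 35 Bst2 UMIs and 0 of Lyz2. Ccr7 had 31 UMIs in 5 cells, 25 of them in 2, and Cd209a 27 in 4, 24 of them in 2, and Xcr1 and Clec9a had 5 and 1. The mast cell genes Cpa3, Tpsb2, Cma1, Fcer1a and Ms4a2 had 0 UMIs, and the 1 list gene with enough UMIs, Gata2, had 2 UMIs in members and a log2 ratio of -2.09 (-5.14 to -0.22). It had 0 UMIs in myeloid-only cells, where the bound against 3 counts was -0.06, within 4-fold. Of 20 T, NK and B cell genes 14 had 0 UMIs in the members, Cd3d, Cd3e, Nkg7 and Ms4a1 among them, and 1, Ighm, of 4 with enough UMIs was past 4-fold higher, with 56 UMIs in 23 cells, and 1 of 4 was without mixed cells too. A count of 0 over the members' 1791290 UMIs allows a level of up to 3 counts in that sum.

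Among the genes with an interval farthest above 0 outside the rule were, beside F13a1 and Ctss, Rgs1, Adgre1, S100a9, Lilr4b, Pira2, Cd209f, Mrc1, Ly9, C1qc, Msr1, Chil3, Ms4a7, Lcp1, Pik3ap1, Fcgr3, Tnip3 and Bcl2a1b. Rgs1, a regulator of chemokine receptor signalling, had 274 UMIs in members and 15 in the other cells. Cd209f, a lectin of the DC-SIGN family, had 100, of which 60 were in 1 cell. Counts of Pira2 and Bcl2a1b are uncertain because each belongs to a family of near-identical copies. Farthest below 0 were Pax7, which the rule set to 0, and genes of myogenic differentiation and blood, Tnni1, Hbb-bs, Mymk, Cav3, Myog, Myl4, Cdkn1c, Cacng1 and Myh3. Mymk, the fusion protein myomaker, had 3 UMIs in members against 5933 in the others. Myog, the differentiation factor myogenin, had 28 against 20222.

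Lists of other tissue cells differed between all members and myeloid-only cells. Of 12 fibro-adipogenic genes 0 were past 4-fold in all members and 11 were past 4-fold lower in myeloid-only cells. Col1a1, a chain of type I collagen, stood at 3143 CPM over all members, at 89.2 in myeloid-only cells and at 8917 in Pdgfra cells. Of 7 tenocyte genes 1 and 6 were lower, of 12 MuSC genes 10 and 9, of 14 muscle fibre genes 6 and 7, of 8 mural genes 3 and 3 (with 1 and 0 higher), and of 5 erythroid genes 3 and 3. Endothelial genes were past 4-fold higher for 3 of 9 over all members (median 1.83) and for 0 of 9 in myeloid-only cells, where 2 were lower. Schwann genes were past 4-fold higher for 5 of 8 (median 2.21) and then 0 of 8, with 1 lower. Myod1 and Des, genes of MuSCs, stood at 3.02 and 24.2 CPM in myeloid-only cells and 179.6 and 1223 in Pax7 cells. The low MuSC values follow in part from the limit on Pax7 in the rule.

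RNA of the surface proteins that the study's methods name for sorting is given for the same cells. Ptprc (CD45; chromosome 1, 138062861 to 138175708, minus strand) had 325 CPM in myeloid-only cells, 0.205 in Pdgfra cells and 0.120 in Pax7 cells. Vcam1 had 27.2, 175 and 575 CPM, and Ly6a (SCA1) 112, 1502 and 37.8. Pecam1 (CD31) had 29 UMIs in all members. By the study's methods the gate was CD45 negative and VCAM positive. Myeloid-only cells carried more Ptprc RNA and less Vcam1 RNA than the other cells, with log2 ratios of 9.87 (9.30 to 10.48) and -4.00 (-4.75 to -3.34). Surface protein was not measured here, and how these cells passed the gate was not tested.

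The 4 sham members were unlike each other. The first had 19629 UMIs, 259 of them of the rule genes, 697 of Lyz2, 1498 of Apoe, 168 of Ccl4 and 21 of Il1b, with 0 of H2-Aa and 3 of Pf4. The second, whose barcode is also an overload member, had 54373 UMIs, with 429 of the rule genes, 542 of Lyz2, 49 of Pf4 and 21 of Ccr2, and was mixed, with 349 Dcn and 241 Col1a1 UMIs. The third had 7533 UMIs, only 6 of the rule genes, 1 of Lyz2 and 0 of Ptprc and C1qc, and was mixed, with 94 Dcn UMIs. The fourth had 9110 UMIs, with 137 of the rule genes, 51 of F13a1, 30 of Mrc1, 25 of Folr2, 21 of Lyve1, 207 of Cd74 and 77 of H2-Aa, and 0 of Apoe and Ccl4. Of these, 2 cells had no RNA of another lineage past the limits. Levels in sham and overload myeloid cells were not compared, because 4 cells of 1 library give no spread between animals.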

How the data were processed

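RNA was measured in single cells with the 10x Genomics 3′ assay, 1 library for each condition. The deposited matrices hold whole-number counts of UMIs per gene and barcode, which the authors made from reads with Cell Ranger 6.0.0 on the mouse genome GRCm38. By the submitters' processing notes R 4.0.2 and Seurat 4.0.2 were also used. The labels speak of a mouse for each library and the study's methods of several mice in each group, so how many animals a library holds is not settled here, and there is no spread between replicates. Sorting removed doublets and dead cells before capture.

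Cells were read with scanpy 1.11.5 and scipy 1.17.1 (Python 3.11.15). UMIs were summed over cells, scaled to CPM and compared as log2 ratios over genes with at least 20 UMIs on both sides together. No test was run, because cells of 1 library are not replicates. Intervals are exact, at 95%. A share of 0 is limited by 3 counts. Cells were thinned to 2000 UMIs for shares. Clusters used 2000 variable genes without the rule genes, 20 components, 15 neighbours and a resolution of 0.5. The ratio step was tested on simulated data.

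The members and the 34 gene lists were chosen with earlier results of these data known. Genes named are those of the lists, the 20 with intervals farthest above and the 10 farthest below 0, the 20 of highest CPM and 10 leading genes per cluster. Alternatives were scaling with edgeR 4.0.16 and DESeq2 1.42.0 factors, other limits on cells, genes and markers, doublet removal at 0.8% per 1000 cells, and the mean over cells. Leaving out mixed droplets and shared barcodes was added after the data were seen. The limits for mixed droplets, per 10000 UMIs, were 100 for fibro-adipogenic, 15 for MuSC, 5 for endothelial, 10 for Schwann, 50 for mural and 50 for muscle fibre lists. The rule genes were counted in no other list. Some genes that these rules name are not reported here.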

Additional observations from a re-analysis of the deposited data

How the results depend on the processing

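Scaling by edgeR or DESeq2 factors moved the 2 counts of genes by less than 1.5 times. With a mitochondrial limit of 5% there was 1 sham member. Asking for at least 3 rule UMIs gave 125 overload members (4.38% of kept cells), and leaving out mixed droplets gave 53 (1.885%). Without a filter on low counts 5572 of 21174 genes were at least 4-fold higher, and with at least 100 UMIs per gene 612 of 12346 were. At least 4-fold lower were 1205 genes with the mean of per-cell CPM and 1255 without mixed droplets. At a resolution of 1.0 there were 6 clusters. The direction changed for the median log2 ratio of the mast cell list without the filter (3.77), of the Schwann list with the mean of per-cell CPM (-1.12) and without mixed droplets (-0.13), of the fibro-adipogenic list in the same settings (from 0.23 to -0.54 and -3.50), and of the endothelial and sorting protein lists without mixed droplets (from 1.83 to -0.50 and from 1.40 to -1.25). Among the single genes reported here that were past 4-fold it changed for Kcna1 (-0.10), Mag (-1.06), Mbp (-0.29) and Ncmap (-1.72) with the mean of per-cell CPM, and for Flt1 (-2.32) and Myh11 (-0.72) without mixed droplets. Of these, Kcna1 had 36 of its 38 UMIs and Mbp 94 of 106 in 1 mixed cell, and Myh11 55 of 55 in another mixed cell. The median of the complement list changed from 2.28 to 1.29 without mixed droplets, to 1.67 with at least 100 UMIs per gene and to 4.21 without the filter. At least 100 UMIs per gene also lowered the monocyte median from 5.68 to 0.66 and the dendritic cell median from 3.68 to 0.88. The neutrophil median went from 9.28 to 3.74, pattern recognition from 4.90 to 2.70 and transcription factors from 2.10 to 1.50. The cause was not tested. No paired analysis was possible because each group has 1 library. Depth limits genes with few UMIs.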
